A study of Mus musculus with 12 samples.

Results

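Mouse brain small RNA was sequenced with different tags at the end of the 5′ adaptor, and the libraries of 2 of these tags, index 7 (CAGAUC) and index 11 (GGCUAC), were compared here. The libraries were chosen by their index alone. They were 4 of the 6 libraries of the series, a library of frontal cortex (FCx) and a library of hippocampus (HP) for each index, and held 8 of the 12 count files, because every library had been sequenced alone in a lane and once more in a lane shared with other indexes. All tissue came from male C57BL/6J mice, 8 weeks old and singly housed before dissection, for which the labels name no drug or other agent, and tissue of 3 mice was pooled for each region, so a single RNA pool lay behind both FCx libraries and another behind both HP libraries. Within a region the groups thus shared animals, tissue and RNA. The labels and methods give the tag as what set the libraries apart, each index was used for 1 library a region, and the tag and the separate preparation of its libraries cannot be told apart. The spread measured here is technical, the p-values refer to it alone, and differences between animals were not measured.

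A mature miRNA is a short RNA that is cut from a hairpin precursor and loaded into an Argonaute protein. It pairs with target mRNAs mainly through its seed, so miRNAs of a family share the seed and can differ in the rest of the molecule. In a small RNA library the 5′ adaptor is joined to the first nucleotide of each miRNA by T4 RNA ligase, and the number of reads of a miRNA depends on its amount and on how well this joining works for its sequence. In the protocol used here the 6 nt tag was the part of the adaptor next to the miRNA.

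The 2 runs of a library were summed, which gave 1461732 counts on miRNAs in FCx with index 7, 652449 in FCx with index 11, 4956117 in HP with index 7 and 4053518 in HP with index 11. The level of a miRNA is its share of the miRNA counts of a library, scaled so that a library sums to 1000000 (CPM). Where 2 values stand for an index, the first is FCx and the second HP. The miRNAs described are the 135 with a mean of at least 100 CPM over the 4 libraries, which held 99.5% to 99.6% of the counts of each library. Of these, 98 reached 100 CPM with both indexes, 24 passed only through their level with index 7 and 13 only through their level with index 11, and the last 2 sets had to differ in order to pass. Of the miRNAs with the largest fold changes described below, miR-496, miR-380-3p, miR-335-5p, miR-411*, miR-674*, miR-652 and miR-186 passed only through index 11, and miR-338-3p, miR-674, miR-337-5p, miR-429, miR-1-2-as and miR-1 only through index 7, as did miR-30e, miR-181d, miR-7a and miR-7b of the families. That their indexes differ follows in part from the minimum, and it is given as a description. miR-132, miR-22, miR-218, miR-100, miR-99a, miR-103, miR-107, miR-124, miR-222, miR-378 and miR-744 reached 100 CPM with both indexes. Just inside the minimum were miR-125b* (mean of 103 CPM) and miR-381 (mean of 101 CPM), and just outside were miR-1198 (98.1 CPM) and miR-409-3p (94.2 CPM). The tissue markers miR-124, miR-9, miR-128 and miR-132 were among these miRNAs, and miR-137 had a mean of 66.2 CPM.

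The mature sequences of the miRNAs that differed most are shown first, from RefSeq (GRCm38.p6), 5′ to 3′, with the seed (bases 2 to 8) in capitals. RefSeq sequences could be matched to 113 of the 135 miRNAs. The first set had the largest fold changes in favour of index 11. miR-496 belongs to it too.
miR-380-3p: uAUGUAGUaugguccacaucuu
miR-132: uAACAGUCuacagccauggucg
miR-674*: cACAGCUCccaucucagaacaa
miR-335-5p: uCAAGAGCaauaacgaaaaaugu
miR-411*: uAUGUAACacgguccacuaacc

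The second set had the largest fold changes in favour of index 7. miR-124 belongs to it too.
miR-338-3p: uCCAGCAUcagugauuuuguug
miR-674: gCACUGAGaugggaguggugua
miR-337-5p: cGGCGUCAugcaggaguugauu
miR-103: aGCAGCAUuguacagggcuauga
miR-107: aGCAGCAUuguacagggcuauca

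The third set shows the miR-30 and miR-181 families, in each of which miRNAs of the same seed were called in opposite directions. Only miR-181a of this set was not called. miR-30d belongs to the first of these families.
miR-30a: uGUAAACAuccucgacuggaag
miR-30e: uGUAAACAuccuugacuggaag
miR-30c: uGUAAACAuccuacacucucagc
miR-181b: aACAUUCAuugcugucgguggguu
miR-181a: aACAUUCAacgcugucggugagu
miR-181d: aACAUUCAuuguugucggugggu

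miR-222 and miR-221 are added because they start with the same 3 bases as miR-103 and miR-107. They were chosen after their values were seen.
miR-222: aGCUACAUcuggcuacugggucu
miR-221: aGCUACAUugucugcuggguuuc

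In the genome build of the alignments, NCBIM37, miR-132 lies at chr11:74987225-74987246 (+ strand) in an intron of the lincRNA 1700016P03Rik, and miR-335-5p at chr6:30691314-30691336 (+) in an intron of Mest. miR-380-3p lies at chr12:110950052-110950073 (+) and miR-411* at chr12:110948435-110948456 (+), in the imprinted miR-379/miR-410 cluster, and neither overlaps another annotated gene. Both arms of miR-674 are cut from 1 hairpin on chromosome 2, miR-674 at chr2:117010887-117010908 (+) and miR-674* at chr2:117010922-117010943 (+). miR-338-3p lies at chr11:119876095-119876116 (- strand) in an intron of Aatk. miR-107 at chr19:34895190-34895212 (-) and the copies of miR-103 at chr11:35595949-35595971 (+) and chr2:131113839-131113861 (+) lie in introns of the pantothenate kinase genes Pank1, Pank3 and Pank2.

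Index 7 and index 11 gave different levels for many brain miRNAs. A miRNA was called at an adjusted p under 0.05 (quasi-likelihood test of edgeR with the region as a block, Benjamini-Hochberg adjustment over all 417 miRNAs tested). Of the 135 miRNAs 89 were called, against 50.6% of all miRNAs tested. Of them, 40 had a higher level with index 11 (23.3% of all tested) and 49 with index 7 (27.3% of all tested). The share of the 135 was 65.9%, that of the other 282 tested was 43.3%, and that of the 98 miRNAs with 100 CPM or more with both indexes was 55.1% (54 miRNAs). The median absolute log2 fold change was 1.52 over the 135 and 1.6 over all miRNAs tested. Over the 135, 110 (81.5%) had the same direction in FCx and HP, and 106 had 1 direction in both regions and in both runs. The 24 and 13 miRNAs that passed the minimum through 1 index alone had to differ on average, which favours 1 direction. The share with 1 direction over all tested was not counted. A call rests on both regions and favours miRNAs that agree between them. Of the 89 called miRNAs, 88 had the same direction in FCx and HP, and 87 had 1 direction in both regions and in both runs. The exception between regions was miR-382* (17.1 and 699.9 CPM with index 7 and 257 and 329.6 CPM with index 11).

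A change of at least 4-fold in the same direction in both regions was seen for 39 of the 135 miRNAs, 28.9% against 28.7% of the 314 miRNAs tested that had a count in all 4 libraries. In 14 of them the level was higher with index 11 and in 25 with index 7. Most of the 39 passed the minimum only through the index where they were higher, and so had to differ. Their share is a description and cannot be compared with that of all tested. A change of at least 16-fold in both regions was seen for miR-496, miR-380-3p, miR-132, miR-335-5p and miR-411* (higher with index 11) and for miR-338-3p, miR-674 and miR-337-5p (higher with index 7). At the other end, 31 miRNAs stayed within 2-fold in both regions, among them let-7c, miR-128, let-7b, let-7a, let-7f, miR-9 and miR-26a.

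**Figure D1:**
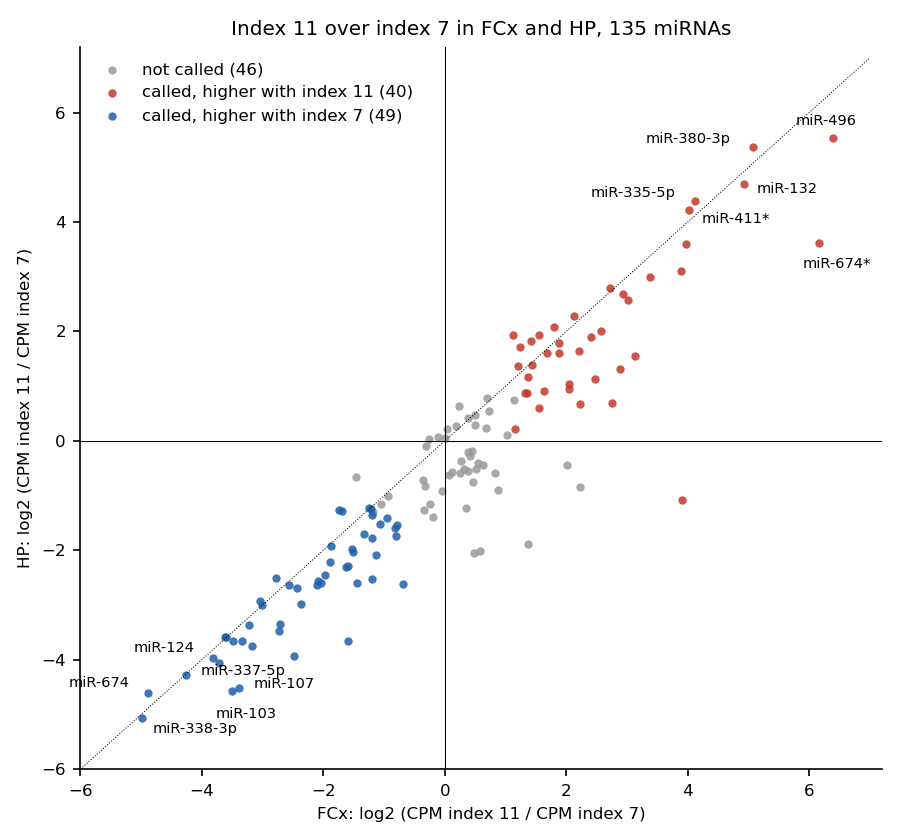
Log2 ratio of the CPM with index 11 to the CPM with index 7 in FCx (x axis) and in HP (y axis), 1 point for each of 135 miRNAs, coloured by the edgeR call. The dotted line marks equal ratios, the 88 called miRNAs with 1 direction lie at the lower left and upper right, and miR-382* is the called point below the zero line on the right.

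The same library run again gave nearly the same levels. The runs show the spread of sequencing alone, not that between preparations, and the 37 miRNAs that had to differ with the index are among the 135. Between the individual and the pooled run of a library the median absolute log2 ratio was 0.20 (FCx index 7), 0.15 (FCx index 11), 0.14 (HP index 7) and 0.07 (HP index 11), while between index 7 and index 11 it was 1.5 in FCx and 1.59 in HP. Between runs, 2 miRNAs in FCx with index 11 and none in the other 3 libraries differed by 4-fold or more. Between indexes 51 did so in FCx and 52 in HP. Among the 98 miRNAs with 100 CPM or more with both indexes the median was 1.24 in FCx and 1.23 in HP between indexes and 0.07 to 0.16 between runs, and 28 (FCx) and 30 (HP) differed by 4-fold or more between indexes and none between runs.

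The largest fold changes in favour of index 11 were those of miR-496, miR-380-3p, miR-132, miR-674*, miR-335-5p and miR-411*, in this order. The miRNAs named for either index were picked by fold change and call. Where the groups of such a miRNA do not overlap, this follows in part from the choice. The share without overlap over all miRNAs tested was not counted. miR-496, of the imprinted miR-379/miR-410 cluster, had 4.79 and 9.89 CPM with index 7 and 403 and 459.8 CPM with index 11, from 7 and 49 counts with index 7. Its ratio was 84.2-fold in FCx and 46.5-fold in HP, and the log2 fold change of the fit was 6.16 (SE 0.53, adjusted p = 1.59e-24). Both libraries of index 11 lay above both libraries of index 7, as a miRNA that passed the minimum through index 11 alone had to on average. miR-380-3p, another member of this cluster, had 20.5 and 13.5 CPM with index 7 and 696 and 559 CPM with index 11 (log2 fold change 5.47, SE 0.52, adjusted p = 2.65e-21). The star strand miR-411* of the same cluster had 24.6 and 21.2 CPM with index 7 and 398 and 394 CPM with index 11 (log2 fold change 4.36, SE 0.47, adjusted p = 9.71e-17). All 3 were among the 13 that passed through index 11 alone, and with index 7 they were near the bottom of the list of 135, and with index 11 near the middle.

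miR-132, which is induced by neuronal activity through CREB and promotes the growth of dendrites, had 731 and 252 CPM with index 7 and 22159.6 and 6502 CPM with index 11. The ratio was 30.3-fold in FCx and 25.8-fold in HP (log2 fold change 5.02, SE 0.59, adjusted p = 1.1e-14). In each index the FCx level was above the HP level, and even the lower value of index 11 exceeded the higher value of index 7. miR-212, which shares the seed and the transcript of miR-132, had 158 and 112 CPM with index 7 and 740.3 and 179 CPM with index 11, a smaller difference (log2 fold change 1.66, SE 0.42, adjusted p = 0.000295).

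miR-674*, the 3′ arm of the miR-674 hairpin, had 4.1 and 8.68 CPM with index 7 and 294 and 106 CPM with index 11, from 6 and 43 counts with index 7 (log2 fold change 4.86, SE 0.47, adjusted p = 9.57e-21). miR-335-5p, from the intron of the imprinted gene Mest, had 25.3 and 21.6 CPM with index 7 and 439.9 and 453 CPM with index 11 (log2 fold change 4.50, SE 0.48, adjusted p = 3.99e-17). Both passed the minimum through index 11 alone. In neither did the groups overlap, and the difference of miR-674* was larger in FCx (71.7-fold) than in HP (12.3-fold), which was not tested. The next 6 miRNAs were miR-22, miR-652, miR-218, miR-186, miR-100 and miR-99a, all with log2 fold changes of 2.97 or more. Among them, miR-22 had 101 and 124 CPM with index 7 and 1582 and 1499.7 CPM with index 11. miR-218, which is encoded in introns of the axon guidance genes Slit2 and Slit3, had 252 and 714 CPM with index 7 and 2606 and 5721 CPM with index 11. miR-100 had 80.7 and 136 CPM with index 7 and 656 and 804 CPM with index 11. These 3 reached the minimum with both indexes. miR-652 had 18.5 and 19.8 CPM with index 7 and 273 and 169 CPM with index 11 and miR-186 had 70.5 and 90.8 CPM with index 7 and 536 and 582 CPM with index 11. Every index 11 value of these 6 miRNAs lay above both index 7 values of the same miRNA.

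**Figure D2:**
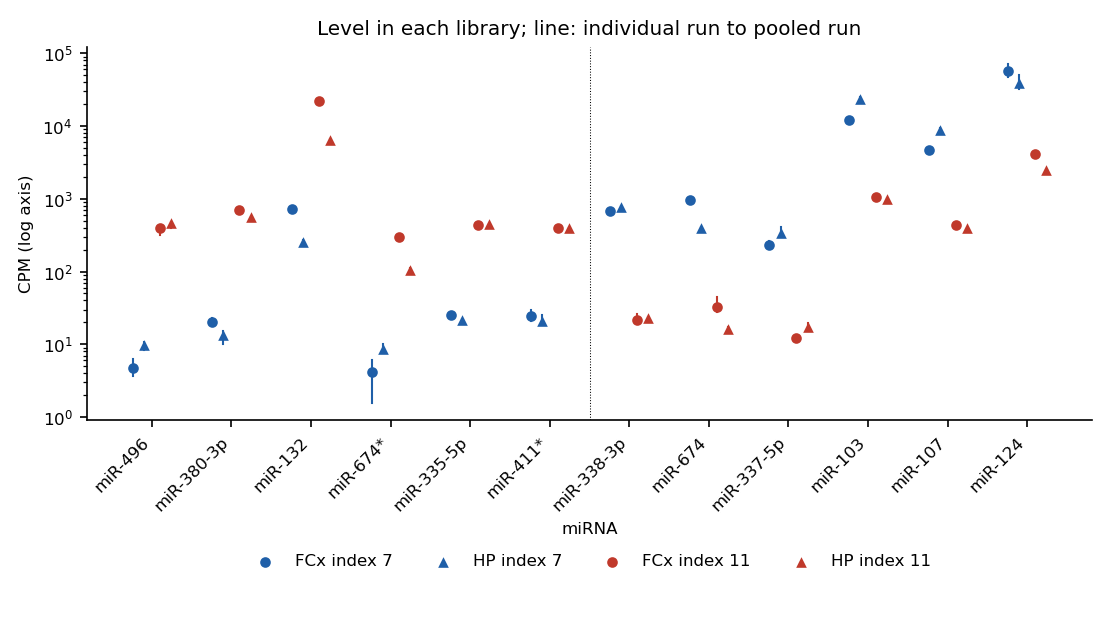
CPM (log axis) of the 6 miRNAs with the largest fold changes in favour of index 11 (left of the dotted line) and of index 7 (right of it); points are libraries, and the vertical line through a point joins the values of its individual and pooled runs. In all 12 the values of the 2 indexes do not overlap, and the runs of a library lie close together.

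Higher levels with index 7 were largest in miR-338-3p, which promotes the differentiation of oligodendrocytes and passed the minimum through index 7 alone. It had 677 and 769 CPM with index 7 and 21.5 and 22.9 CPM with index 11, a ratio of 31.6-fold in FCx and 33.5-fold in HP (log2 fold change -4.75, SE 0.50, adjusted p = 1.57e-17). The other arm of this hairpin, miR-338-5p, was under the minimum and was also higher with index 7 (135 and 156 CPM with index 7 against 27.6 and 14.8 CPM with index 11, adjusted p = 2.36e-09). miR-219, the other miRNA known for oligodendrocyte differentiation, differed in direction between the regions and was not called (adjusted p = 0.37). Of the 3 miRNAs listed for oligodendrocytes 2 were thus higher with index 7, against 27.3% of all tested.

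miR-674, the 5′ arm of the hairpin whose other arm was higher with index 11, had 951 and 398 CPM with index 7 and 32.2 and 16.3 CPM with index 11 (log2 fold change -4.49, SE 0.49, adjusted p = 1.42e-16). miR-337-5p, from the imprinted region of chromosome 12, had 234 and 339.6 CPM with index 7 and 12.3 and 17.5 CPM with index 11 (log2 fold change -3.95, SE 0.47, adjusted p = 1.1e-14). In both miRNAs, which also passed through index 7 alone, the index 7 values were all more than 10-fold above those of index 11.

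miR-103 and miR-107, which act on insulin signalling and lipid metabolism, had higher levels with index 7. miR-103 had 12073 and 23708 CPM with index 7 and 1065 and 995 CPM with index 11 (log2 fold change -3.83, SE 0.57, adjusted p = 5.2e-10). For miR-107 the levels were 4625 and 8963 CPM with index 7 and 439.9 and 393 CPM with index 11 (log2 fold change -3.74, SE 0.53, adjusted p = 8.11e-11). The ratio in HP was above that in FCx for both, which was not tested, and the groups did not overlap. The mature sequences of these miRNAs differ by 1 base, and reads were aligned with up to 2 mismatches, so their counts are uncertain with respect to each other.

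miR-124, the most typical miRNA of neurons, which represses genes of other cell types, had 57775 and 39174 CPM with index 7 and 4091 and 2504 CPM with index 11. The ratio was 14.1-fold in FCx and 15.6-fold in HP (log2 fold change -3.68, SE 0.61, adjusted p = 2.74e-08). Each value of index 7 was far above both values of index 11, although the RNA behind them was the same in a region. The next 6 were miR-222, miR-429, miR-1-2-as, miR-1, miR-378 and miR-744, with log2 fold changes from -3.67 to -3.25. miR-222, which represses the cell cycle inhibitor p27, had 8214 and 10466 CPM with index 7 and 625 and 628 CPM with index 11. For miR-378 the levels were 1889.5 and 1951 CPM with index 7 and 187 and 154 CPM with index 11. For miR-744 they were 2332 and 2115 CPM with index 7 and 257 and 157 CPM with index 11. In these 3 miRNAs the groups did not overlap. miR-429 had 1936 and 58.9 CPM with index 7 and 172 and 4.69 CPM with index 11, so its index 11 value in FCx was above its index 7 value in HP. miR-1-2-as had 1071 and 812 CPM with index 7 and 87.4 and 67.8 CPM with index 11. miR-1 and miR-1-2-as had almost the same count in each library (1558 and 1566 in FCx with index 7), and the reads of these names could not be told apart. They are counted under both names here and may be 1 signal.

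The other 28 miRNAs called higher with index 11 had log2 fold changes from 0.90 (miR-154) to 2.55 (miR-9*), and the other 37 called higher with index 7 from -3.05 (miR-125b*) to -0.95 (miR-181d). Among the first were miR-143 of smooth muscle (198 and 178 CPM with index 7 and 576 and 680.1 CPM with index 11) and miR-434-3p, antisense to the imprinted gene Rtl1 (1202 and 1131 CPM with index 7 and 4437 and 3459 CPM with index 11). Among the second were miR-21, which is linked to cell growth (627 and 1127 CPM with index 7 and 78.2 and 141 CPM with index 11), and miR-24 (849.7 and 920.1 CPM with index 7 and 229.9 and 198 CPM with index 11). The call of miR-154 was lost with library totals (adjusted p = 0.174), DESeq2 (0.0585), at least 10 counts (0.0516), no filter (0.127), no region block (0.19) and in the pooled lanes (0.192). The 46 miRNAs that were not called had log2 fold changes between -1.03 (let-7e) and 1.16 (miR-29a), with a median absolute value of 0.34.

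The order of the miRNAs changed more with the index than between the runs of a library. Ranked by CPM among the 135, 60 miRNAs moved by 20 ranks or more in the same direction in both regions, 31 up with index 11 and 29 down. The median absolute change was 25 ranks in FCx and 22 in HP, against 3 (FCx index 7), 3 (FCx index 11), 2 (HP index 7) and 1 (HP index 11) between the runs of a library. Spearman's coefficient between index 7 and index 11 was 0.547 in FCx and 0.624 in HP over the 135 miRNAs, while it was 0.987 to 0.997 between the runs of a library. Between FCx and HP with the same index it was 0.847 for index 7 and 0.934 for index 11. Among the 98 miRNAs with 100 CPM or more with both indexes, ranked among themselves, 30 moved by 20 ranks or more in the same direction in both regions, 15 each way. For these 98 the median absolute change was 16 ranks in FCx and 14 in HP, against 1 or 2 between runs, and Spearman's coefficient between the indexes was 0.616 in FCx and 0.646 in HP. These coefficients describe miRNAs of the same libraries, which are not replicates.

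The largest move in both regions was that of miR-22, from rank 118 to 31 in FCx and from 114 to 29 in HP when index 11 replaced index 7. miR-132 moved from rank 50 to 8 in FCx and from 91 to 14 in HP. In the other direction miR-338-3p moved from rank 51 to 133 in FCx and from 55 to 126 in HP. miR-107 moved from rank 18 to 70 in FCx and from 15 to 67 in HP, whereas miR-124 lost 13 ranks in each region, from rank 6 to 19 in FCx and from 8 to 21 in HP. A move of 40 ranks or more in both regions was seen for 28 miRNAs, 14 each way.

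**Figure D3:**
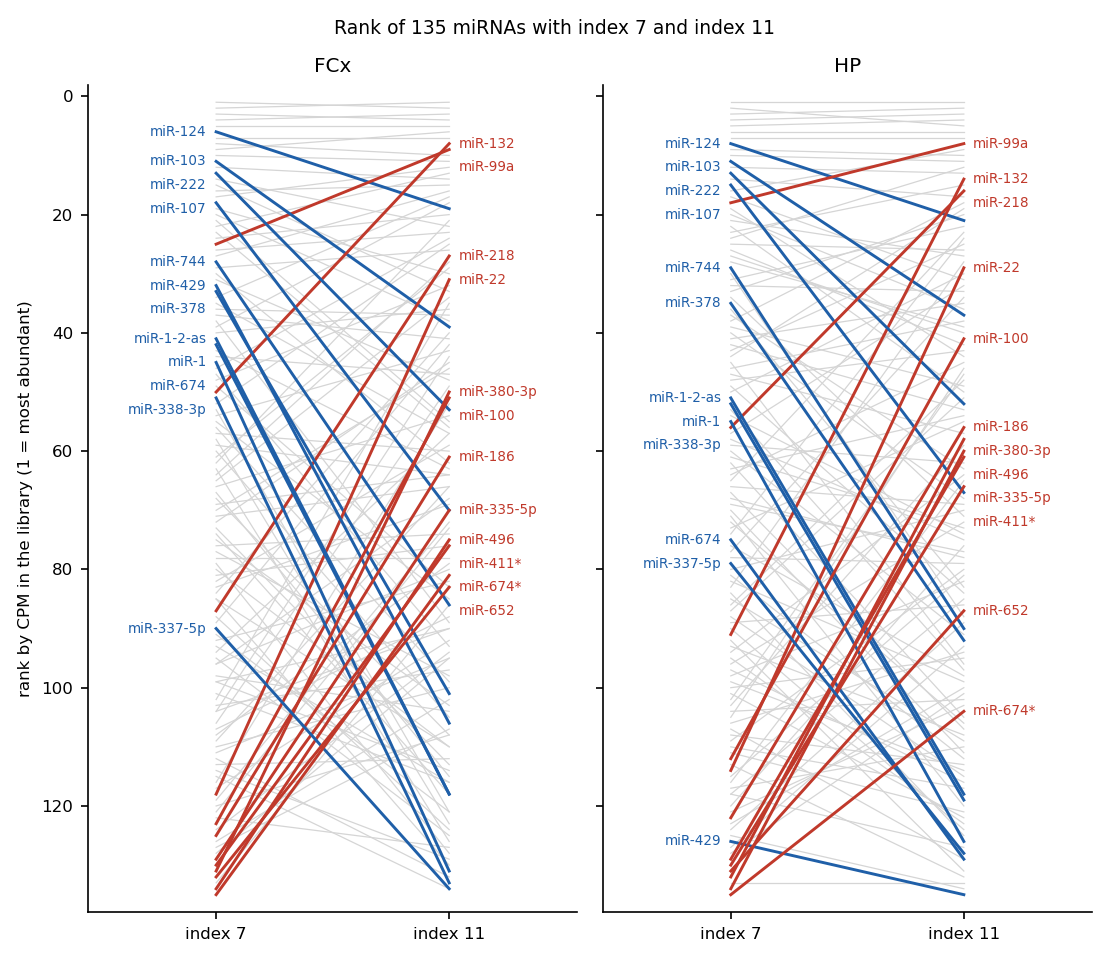
Rank by CPM (1 is the most abundant) of 135 miRNAs with index 7 and index 11 in FCx and in HP, 1 line for each miRNA; red lines are the 12 miRNAs with the largest fold changes in favour of index 11 and blue lines those in favour of index 7. Most lines of the first ranks stay nearly level, and most of the coloured lines are steep in both panels, while that of miR-124 stays within the first 21 ranks. The coloured miRNAs were picked by fold change, and many passed the minimum through 1 index alone, so steep lines follow in part from the choice.

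The 10 most abundant miRNAs were let-7c, miR-128, miR-29a, let-7b, let-7a, let-7f, miR-9, let-7e, miR-124 and let-7d, and of these miR-124 alone was called. The other 9 had log2 fold changes between -1.03 (let-7e) and 1.16 (miR-29a) with adjusted p of 0.119 or more, which does not show that they were equal. Calls were gained in 26 of 117 alternative fits of these 9. miR-29a was called in 8 of them (adjusted p = 6.83e-05 with library totals, 0.00126 with DESeq2), and let-7e and let-7d in 5 each. miR-29a had 68039 and 80079.6 CPM with index 7 and 150560.0 and 134467 CPM with index 11, with both index 11 values above both index 7 values. let-7c, the first miRNA in 3 libraries, had 247188 and 284835 CPM with index 7 and 198333 and 267159 CPM with index 11 (log2 fold change 0.01, SE 0.69). miR-128, which is neuron-enriched and dampens excitability, had 177013 and 70734 CPM with index 7 and 208464 and 110495 CPM with index 11 and was first in FCx with index 11. The levels of let-7b were 101924 and 87796 CPM with index 7 and 85401 and 89887 CPM with index 11. let-7a had 63341 and 68934 CPM with index 7 and 82497 and 91717 CPM with index 11 and let-7f had 35029.7 and 58506 CPM with index 7 and 39862 and 70868 CPM with index 11. The signs of let-7c, let-7b and miR-9 changed with the scaling or the libraries used, and no direction is given for them. The neural miR-9 had 36936 and 57807 CPM with index 7 and 28695 and 35218 CPM with index 11.

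In each region, index 7 and index 11 had 10 miRNAs in common when the first 15 by CPM were taken from each library. miR-124, miR-103 and miR-222 were in the first 15 with index 7 alone in both regions, and miR-132, miR-99a, let-7g and miR-125b-5p with index 11 alone. The first 15 held 89.8% (FCx) and 88.6% (HP) of the counts with index 7 and 90.2% (FCx) and 91.7% (HP) with index 11, so both shares of index 11 were above both of index 7. A test of this cannot pass a threshold of 0.05 in this design: a two-sided exact permutation test gave p = 0.33 over the 4 libraries and p = 0.5 over the 4 arrangements that keep each region apart, both the smallest possible.

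Members of a family, which share the seed, were not tested against each other, and their calls and fold changes are given side by side. Among the 113 miRNAs with a sequence, 15 seeds were shared by 2 to 9 miRNAs, 43 miRNAs in all, and in 2 of these seeds there were calls in both directions. Related miRNAs can take each other's reads, because up to 2 mismatches were allowed and many of the pairs differ by 1 or 2 bases, and such members are uncertain with respect to each other.

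The let-7 family, with miR-98, represses cell growth genes and had the highest sum of the families listed. Of its 9 members, 3 had a higher level with index 11 (let-7g, let-7i and miR-98), none with index 7, and 6 were not called, so the share called was below the 50.6% of all tested. Without FCx index 7, 7 members were higher with index 11, and without HP index 7, 2 were higher with index 7. let-7g had 6333 and 7313 CPM with index 7 and 14928 and 23980.2 CPM with index 11 (log2 fold change 1.69, SE 0.55, adjusted p = 0.00581). let-7e had 35979 and 38111 CPM with index 7 and 15773 and 15498 CPM with index 11 and let-7d had 32299 and 29925 CPM with index 7 and 15638 and 13503 CPM with index 11. In both the index 7 values lay above the index 11 values, with no call here but with one when scaled by library totals (adjusted p = 1.1e-05 for let-7e and 0.000128 for let-7d) or tested with DESeq2 (0.00333 and 0.0123). Summed over the family the level was 524946 CPM (FCx) and 578674 CPM (HP) with index 7 and 458847 CPM (FCx) and 584844 CPM (HP) with index 11, a log2 ratio of -0.19 in FCx and 0.02 in HP.

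The miR-30 family was split between the indexes, with calls on both sides. miR-30a, miR-30d and miR-30e were higher with index 7, and miR-30c with index 11, as was the scarce miR-30b (mean of 25.3 CPM), whose call was lost with DESeq2 (adjusted p = 0.135), library totals (0.0737), no region block (0.194), in the pooled lanes (0.0601) and without HP index 7 (0.0644) or HP index 11 (0.0664). miR-30e had 518 and 555 CPM with index 7 and 75.1 and 97.7 CPM with index 11 (log2 fold change -2.40, adjusted p = 4.99e-07). The call of miR-30a was lost without FCx index 11 (adjusted p = 0.106) and without HP index 11 (adjusted p = 0.0655). For miR-30c the levels were 147 and 198 CPM with index 7 and 369 and 361 CPM with index 11 (log2 fold change 1.31, adjusted p = 0.00439). The sequences above of these families show the same seed in miRNAs with opposite calls. In the miR-181 family, miR-181b was higher with index 11 (2629 and 1462 CPM with index 11 against 639.7 and 709 CPM with index 7, adjusted p = 0.000489) and miR-181d with index 7 (171 and 191 CPM with index 7 against 88.9 and 72.3 CPM with index 11, adjusted p = 0.0343) although they differ by 1 of 23 bases. The call of miR-181d was lost when any of the 4 libraries was left out (adjusted p = 0.0653 to 0.224). miR-181a lay between them (log2 fold change 0.16, adjusted p = 0.809).

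In the miR-99/miR-100 family, which acts on mTOR signalling, miR-99a and miR-100 were higher with index 11 and miR-99b was not called. miR-99a had 2697 and 4684 CPM with index 7 and 17696 and 32655 CPM with index 11 (log2 fold change 2.97, adjusted p = 2.05e-06). miR-99b had 511 and 594 CPM with index 7 and 523 and 691 CPM with index 11 (log2 fold change 0.34, adjusted p = 0.554). In the miR-29 family, which represses collagens, miR-29b was higher with index 11 (adjusted p = 0.00222), while miR-29a and miR-29c were not called (log2 fold changes 1.16 and -0.02). miR-29a was called with DESeq2 and when any of the 4 libraries was left out, so the family is not shown to be split. Some members were called and the rest not in miR-125 (miR-125b-5p higher with index 11, adjusted p = 0.0175), miR-25/miR-92 (miR-92b higher with index 11, adjusted p = 0.0123), miR-26 (miR-26b higher with index 7, adjusted p = 0.0175, but 0.184 without FCx index 7, 0.317 without FCx index 11 and 0.0712 without HP index 11) and miR-148/miR-152 (miR-152 higher with index 7, adjusted p = 0.000133). In the pooled lanes alone the calls of miR-125b-5p (adjusted p = 0.0739), miR-92b (0.196), miR-26b (0.104), let-7g (0.109) and let-7i (0.114) were lost.

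In 5 families of 2 members both were called in 1 direction, against 27.3% of all miRNAs tested called higher with index 7 and 23.3% with index 11. These were miR-103/miR-107, miR-221/miR-222 and miR-7, higher with index 7, and miR-132/miR-212 and miR-23, higher with index 11. Both members of the miR-7 family passed the minimum through index 7 alone, so their direction was fixed by it on average. The sum of miR-221 and miR-222 was 11645 CPM (FCx) and 14594 CPM (HP) with index 7 and 1208 CPM (FCx) and 1289 CPM (HP) with index 11. miR-7b, which is enriched in hypothalamic and other neurons, had 115 and 317 CPM with index 7 and 12.3 and 30.8 CPM with index 11 (log2 fold change -2.99) and miR-7a had 86.9 and 388 CPM with index 7 and 49 and 129 CPM with index 11 (log2 fold change -0.99). The call of miR-7a was lost when any of the 4 libraries was left out (adjusted p = 0.0723 to 0.327). The single members miR-24 and miR-124 were higher with index 7 and miR-218 with index 11. Neither member of the miR-27 family was called. Of the 6 members of the miR-17 seed family 5 had a count, and miR-93, miR-106b and miR-20a were higher with index 11 while no member was higher with index 7, but the call of miR-20a (at most 14 counts in a library, adjusted p = 0.0343) was lost with DESeq2 (0.369), library totals (0.131), no filter (0.106) and without either HP library (0.535 and 0.452). Of the 6 members of the miR-15/miR-16 family, all under 100 CPM, 3 were higher with index 7 (27.3% of all tested) and none with index 11. Of these, miR-16 lost its call when any library but FCx index 7 was left out (adjusted p = 0.0563 to 0.136) and miR-497 without HP index 11 (0.0563), while miR-15a lost it only in the pooled lanes (0.0522).

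**Figure D4:**
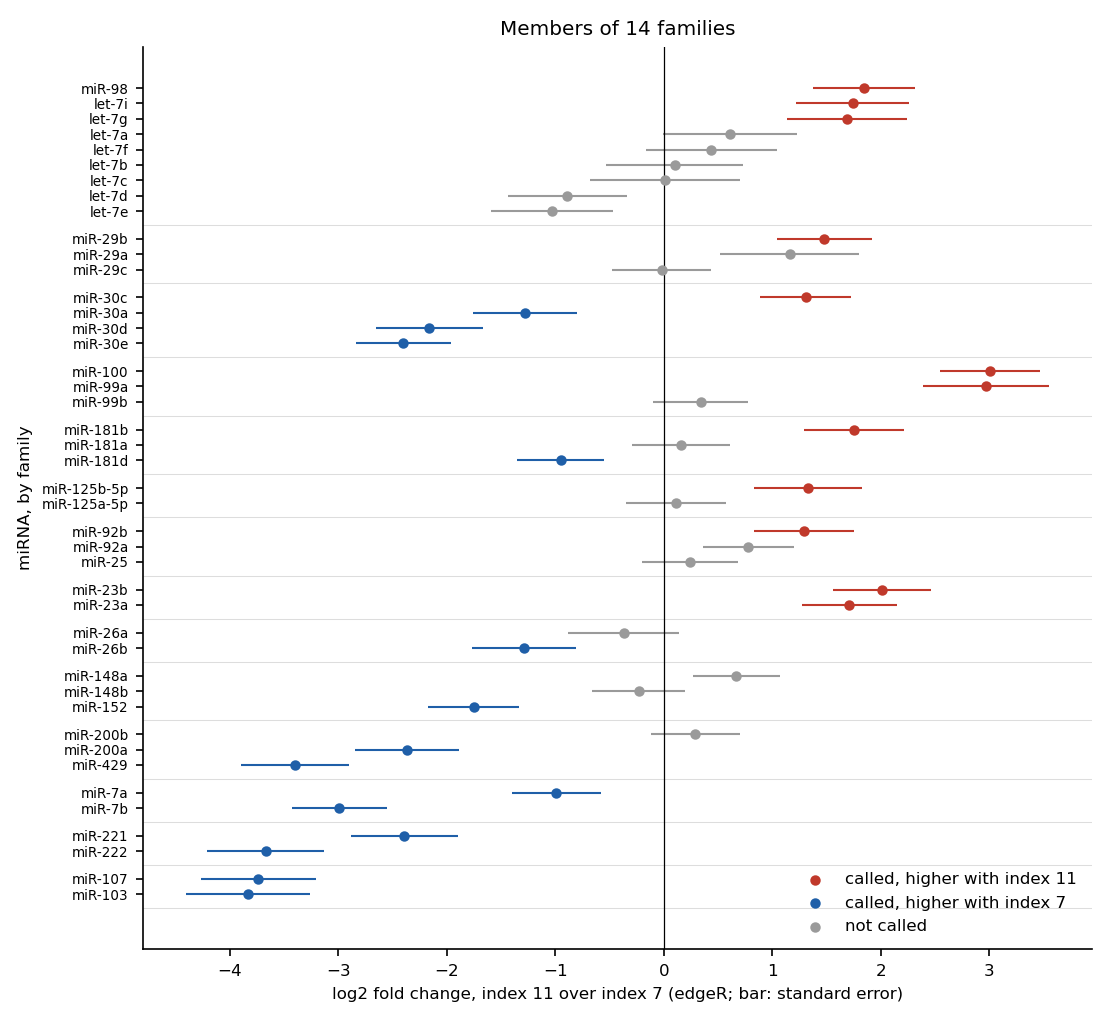
Log2 fold change of index 11 over index 7 from edgeR, with a standard error derived from the test, for the members of 14 families with a mean of 100 CPM or more. The miR-30 and miR-181 families lie on both sides of zero with calls on each, and the miR-103/miR-107, miR-221/miR-222 and miR-7 families lie wholly on the side of index 7. Of the members shown, miR-30e, miR-181d, miR-429, miR-7a and miR-7b passed the minimum through index 7 alone.

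Calls in both directions were found among miRNAs that are transcribed together, as among all miRNAs tested, of which 23.3% were higher with index 11 and 27.3% with index 7. Of the 37 miRNAs listed for the imprinted miR-379/miR-410 cluster 35 were tested, and 14 were higher with index 11, 10 with index 7 and 11 were not called, with a median log2 fold change of -0.04 against -0.06 over all miRNAs tested. Beside miR-496 and miR-380-3p, the members higher with index 11 included miR-411 (log2 fold change 2.42) and miR-381 (2.28), and those higher with index 7 included miR-134 (-4.93), miR-487b (-2.43) and miR-543 (-1.65). With 1 library left out the counts were 11 to 13 with index 11 and 6 to 8 with index 7, and 10 and 4 of the calls held whichever library was left out. Without HP index 11 the calls with index 7 of miR-299 (adjusted p = 0.194), miR-376a (0.237), miR-382 (0.157) and miR-543 (0.0686) were lost, which left 6, and without HP index 7 those of miR-299 (0.101), miR-376a (0.0881), miR-485 (0.0925) and miR-666-5p (0.134). Of the calls with index 11, miR-329, miR-410, miR-380-5p and miR-666-3p lost theirs without at least 1 library. Summed over the cluster the level was 8123 CPM (FCx) and 12057 CPM (HP) with index 7 and 9149 CPM (FCx) and 8525 CPM (HP) with index 11. Of the 6 miRNAs antisense to Rtl1, miR-434-3p was higher with index 11, miR-433, miR-434-5p and miR-136 with index 7, and 2 were not called. The call of miR-433 was lost without either library of index 11, and that of miR-434-5p when any library but FCx index 7 was left out. That of miR-136 was lost when any library but HP index 11 was left out (log2 fold change -1.02 to -0.38). It was also lost in the fit of all 6 libraries (adjusted p = 0.115) and with DESeq2 (0.141). The same held with no region block (0.198), in the individual lanes (0.0506) and in the pooled lanes (0.356).

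Among 15 miRNAs known for roles in synaptic plasticity, 5 were higher with index 11 (miR-132, miR-212, miR-137, miR-384-5p and miR-29b), 3 with index 7 (miR-134, miR-124 and miR-485) and 7 were not called, against 50.6% called of all tested, and the median log2 fold change was 0.65 against -0.06 over all tested. The call of miR-485 was lost when any library but HP index 11 was left out (adjusted p = 0.0925 to 0.433). miR-134, which limits the size of dendritic spines through Limk1, had 50.6 CPM (FCx) and 52.1 CPM (HP) with index 7, no count in FCx with index 11 and 1.48 CPM (6 counts) in HP with index 11. A count of 0 allows up to 3 counts, which is 4.60 CPM in that FCx library. miR-137 had 26.7 and 39.3 CPM with index 7 and 61.3 and 137 CPM with index 11 (adjusted p = 2.85e-05).

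The miRNAs known from muscle and liver, blood and microglia, choroid plexus and ependyma, and vessels were listed too, and 50.6% of all miRNAs tested stands against their counts. Of 5 tested miRNAs of muscle and liver, 2 were higher with index 7 (miR-1 and miR-122) and 3 were not called. The muscle miRNA miR-1 had 1066 and 808 CPM with index 7 and 87.4 and 67.3 CPM with index 11 (adjusted p = 6.63e-11), while miR-206 had 12.3 and 7.06 CPM with index 7 and 6.13 and 1.73 CPM with index 11 and was not called, miR-208a had no count and miR-208b 1 count in all. Summed over the 7 miRNAs listed for muscle and liver, almost all of it miR-1, the level was 1086 and 840.2 CPM with index 7 and 107.3 and 72.0 CPM with index 11. The liver miRNA miR-122 had 6.84 and 24 CPM with index 7 and 1.53 and 0.493 CPM with index 11, from 10, 119, 1 and 2 counts (adjusted p = 3.33e-07, but 0.265 without HP index 7 and 0.256 without HP index 11). Of the blood miRNAs, miR-451 of red cells had 140.0 and 143 CPM with index 7 and 21.5 and 20.2 CPM with index 11 (adjusted p = 1.54e-08), and miR-144, miR-223 and miR-142-3p had at most 16 counts in a library. Of 10 miRNAs of blood and microglia 2 were higher with index 11 (miR-150 and miR-146a), 2 with index 7 (miR-451 and miR-21, the most abundant) and 6 were not called, and their sum was 1119 and 2077 CPM with index 7 and 844 and 874 CPM with index 11. Of 6 miRNAs of choroid plexus and ependyma 2 were higher with index 11 (miR-204 and miR-34b-3p, the latter with adjusted p = 0.0779 without HP index 7 and 0.0556 without HP index 11), 1 with index 7 (miR-34c) and 3 were not called, with a sum of 66.4 and 276 CPM with index 7 and 56.7 and 108 CPM with index 11. Of 4 vascular miRNAs 2 were higher with index 11 (miR-126-3p and miR-143, the most abundant) and 2 were not called, with a sum of 274 and 272 CPM with index 7 and 691 and 839 CPM with index 11. Both indexes were read from the same RNA of a region, and the part of these miRNAs in the other results was not tested.

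The arm of a hairpin with more reads depended on the index in some hairpins. Both arms had a mean of 100 CPM or more in 14 hairpins, and the more abundant arm differed between index 7 and index 11 in both regions in 4 of them (miR-674, miR-369, miR-151 and miR-30e). miR-674 passed the minimum through index 7 alone and miR-674* through index 11 alone, so this change of arm was fixed by the minimum on average over the regions, and miR-30e and miR-151-3p passed through index 7 alone. Where both arms reached 100 CPM with both indexes, the arm differed in 1 of 7 hairpins, miR-369. Among the 69 hairpins whose arms together had a mean of 100 CPM or more, it differed in 9, and among the 116 with a count in each library in 17 (14.7%). For miR-674 the 5′ arm held 99.6% (FCx) and 97.9% (HP) of the counts of both arms with index 7, and 9.86% (FCx) and 13.3% (HP) with index 11. For miR-369 the 5′ arm held 73.8% (FCx) and 78.3% (HP) with index 7, and 13.5% (FCx) and 9.74% (HP) with index 11. In the miR-151 hairpin the 5p arm went the other way, from 40.1% (FCx) and 42.9% (HP) with index 7 to 85.1% (FCx) and 86.0% (HP) with index 11. miR-30e held 84.8% (FCx) and 51.0% (HP) with index 7 and 14.8% (FCx) and 24.8% (HP) with index 11, so in HP it was only just the more abundant arm with index 7. In 6 of the 14 hairpins the ratio of the arms changed by 4-fold or more in the same direction in both regions. The arms of miR-330 kept their shares (38.0% and 38.6% in FCx and 30.4% and 29.9% in HP, index 7 first) while both were higher with index 7. Both passed the minimum through index 7 alone, so this direction was fixed by the minimum on average.

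**Figure D5:**
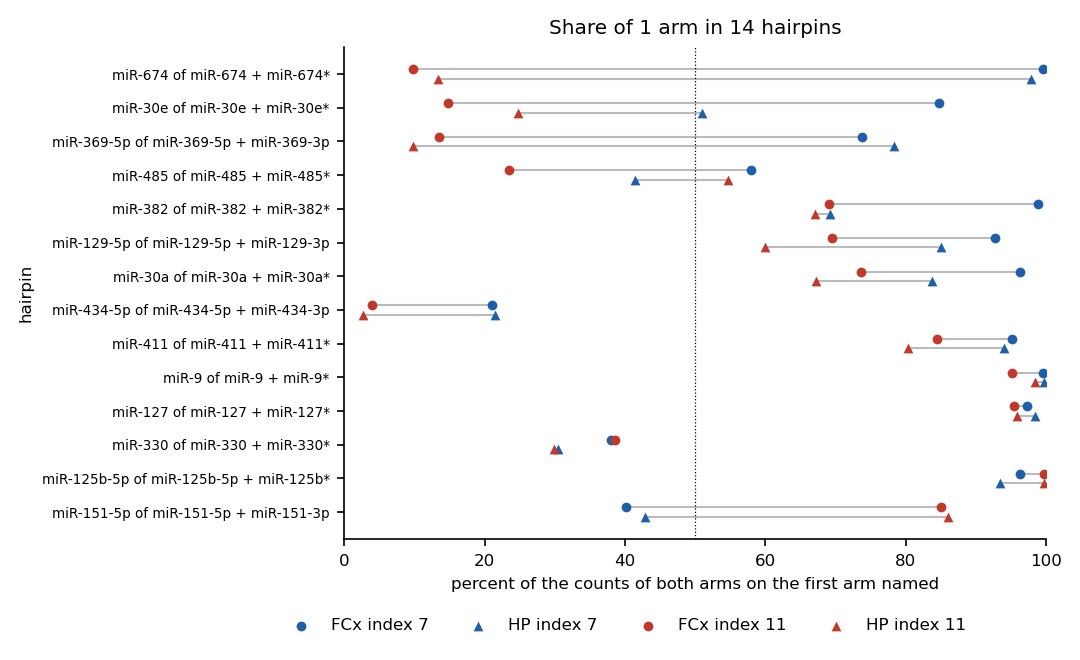
Share of the first arm named in the counts of both arms (percent, x axis) in 14 hairpins; blue marks index 7, red index 11, circles FCx and triangles HP, and grey lines join the indexes of a region. The dotted line is an equal share, and it is crossed in the same direction in both regions by miR-674, miR-369, miR-151 and miR-30e.

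The differences between FCx and HP were in part the same with both indexes, with the same direction for 83 of the 135 miRNAs. With index 7, 28 of the 135 miRNAs differed by at least 2-fold between the regions and with index 11, 25 did. With both indexes, 7 were at least 2-fold higher in FCx (miR-132, miR-383, miR-200a, miR-429, miR-1224, miR-200b and miR-760) and 3 in HP (miR-218, miR-7a and miR-7b). miR-429, of the epithelial miR-200 family, was 32.9-fold higher in FCx than in HP with index 7 and 36.6-fold with index 11, although its level was 11.3-fold (FCx) and 12.6-fold (HP) higher with index 7. In bulk tissue, fewer cells of a type and less RNA per cell cannot be told apart. miR-485* and miR-674* were at least 2-fold higher in one region with index 7 and in the other with index 11, and miR-191 was 8.79-fold higher in HP with index 7 and 1.09-fold higher in FCx with index 11. There is 1 library for each region and index, so these regional ratios have no replicate check. Over the 135 miRNAs the median absolute log2 ratio between regions was 0.4 with index 7 and 0.41 with index 11, below the 1.5 (FCx) and 1.59 (HP) between indexes. The 135 include miRNAs that had to differ between indexes in order to pass. Among the 98 miRNAs with 100 CPM or more with both indexes the median between indexes was 1.24 (FCx) and 1.23 (HP).

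The first bases of the miRNAs, which stand next to the tag, are given here as a description of the 113 miRNAs with a sequence. Of the 11 that start with AG, none was higher with index 11, 6 were higher with index 7 and 5 were not called, with a median log2 fold change of -2.39. Of the 5 that start with AGC, miR-103, miR-107, miR-221 and miR-222 were higher with index 7 and miR-138 was not called. The 7 that start with G had a median of -1.68, with 6 higher with index 7. The 18 that start with UA had a median of 1.22, with 10 higher with index 11 and 3 with index 7, and the 12 that start with AA had a median of 1.95, with 7 higher with index 11 and 3 with index 7. Over all 113 the median was 0.07, with 34 higher with index 11 and 40 with index 7. The starts above are a selection with large medians. The 20 that start with UG had a median of 0.19, with 6 higher with each index. The 15 that start with UC had -0.23, with 3 higher with index 11 and 5 with index 7. By the first base alone the median was 0.31 for the 59 with U, 0.24 for the 17 with C and -0.6 for the 30 with A. Some of these miRNAs passed the minimum through a single index, which set their direction on average. For index 7 these were miR-674, miR-330* and miR-33 (G), miR-31 and miR-409-5p (AG), miR-429 (UA), and miR-181d and miR-495 (AA). For index 11 they were miR-380-3p, miR-411* and miR-381 (UA), and miR-652 and miR-708 (AA). Members of 1 seed share their first bases and are not independent, and the miR-30 and miR-181 families show calls in both directions with the same start. By the last base the medians lay between -0.32 (G) and 0.24 (C).

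Spearman's coefficient with the log2 fold change over the 113 miRNAs was -0.238 for the GC content, -0.264 for that of bases 1 to 6, -0.0238 for the length, 0.263 for the folding energy of the mature sequence, and -0.101 for the difference in the folding energy at 20 °C between the miRNA joined to the tag of index 11 and the same miRNA joined to that of index 7. These coefficients are across miRNAs that share libraries and families, and weak values of this kind are no finding.

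The 5′ end of most miRNAs was the same with both indexes. Of the 135 miRNAs, 73 had a sequence and at least 100 genome alignments within 3 nt of the annotated 5′ end in each library, and the median share of these that began exactly at that end was 97.5% (FCx) and 97.8% (HP) with index 7 and 98.7% (FCx) and 98.9% (HP) with index 11. The share differed by 10 percentage points or more in the same direction in both regions for 6 miRNAs, and was higher with index 11 for 5 of them (miR-101a, miR-127*, miR-300, miR-323-3p and miR-344). miR-344 began at the annotated end in 84.2% (FCx) and 87.0% (HP) of alignments with index 7 and in 99.7% (FCx) and 99.3% (HP) with index 11, and 1 nt further in in 13.4%, 11.6%, 0.261% and 0.552% of them in the same order. For miR-300 the share was 56.6% (FCx) and 68.4% (HP) with index 7 and 89.2% (FCx) and 91.5% (HP) with index 11. miR-411 mostly began 1 nt before the annotated end with both indexes, in 63.1% (FCx) and 67.9% (HP) of alignments with index 7 and in 89.8% (FCx) and 89.8% (HP) with index 11. A shift of the 5′ end moves the seed, so the mixture of seeds read for these miRNAs differed with the index.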

How the data were processed

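Per the labels, small RNA of 15 to 35 nt was sequenced, and the authors removed adaptors, reads under 14 nt, homopolymers and mitochondrial and ribosomal reads, and aligned the rest with Bowtie to NCBIM37 and to miRBase 11 with up to 2 mismatches. The values used are the deposited raw counts per mature miRNA, and the deposited genome alignments, in BED format, gave the 5′ ends as counts of alignments. Runs of a library were summed. miRNAs with at least 2 counts over the libraries of FCx or of HP were tested with edgeR 4.0.16 in R 4.3.3 (quasi-likelihood test, TMM scaling, region and index as terms, Benjamini-Hochberg adjustment). The standard error (SE) was derived from this test, as the absolute log2 fold change over the square root of the F statistic. The fit had 1 residual degree of freedom, so the spread was shared between miRNAs and none had its own. The common value was a biological coefficient of variation of 0.267, and the spread used could change with the level. The SE was 0.69 for let-7c, the most abundant, and 0.40 for miR-181d, which is near the minimum. A call thus needed a larger fold change in the most abundant miRNAs. DESeq2 1.42.0, other scalings, filters, runs and leaving out each library, fitted with the index 3 libraries of the series, served as alternatives. Data were simulated from these 4 libraries with 417 miRNAs, of which 200 were changed 4-fold. In them 135 of the 197 changed and tested were called, with 4 false calls, and with no change there was no call. The simulation gave every miRNA the common spread, so it does not show the rate of false calls in the real data.

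The members and lists were chosen with earlier results of these data known. Full statistics are given for the first 6 miRNAs in each direction of those with 100 CPM or more, a call and 1 direction in both regions, values for the first 12 and for the 10 most abundant, and values for some members of listed families, chosen, as other miRNAs were, after their values were seen. Sequences are from RefSeq (GRCm38.p6), and hosts from GENCODE vM1. A RefSeq sequence was used where the genome alignments at its locus followed the deposited counts of the name. Folding energies came from RNAfold 2.7.2, and pandas 2.3.3, scipy 1.17.1, pysam 0.24.0 and matplotlib 3.10.9 (Python 3.11.15) were used for the rest.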

Additional observations from a re-analysis of the deposited data

Results flagged for a closer look

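In 10 of the 96 miRNAs that were listed or named every run of FCx moved one way with the index and every run of HP the other way. None of them was called in the fit of the 4 libraries, and the difference between the regions was not tested in any of them. The called miR-382*, given above, also had opposite directions in FCx and HP and is not one of these 10. As log2 ratios of index 11 to index 7, miR-191 had 1.37 in FCx and -1.88 in HP, and miR-219, known from oligodendrocytes, had 0.58 and -2.01. miR-148b had 0.36 in FCx and -1.23 in HP, miR-146b had 0.82 and -0.58, and miR-323-3p had 0.47 and -0.75. Smaller opposite ratios were found for miR-125a-5p (0.31 and -0.52), miR-27a (0.39 and -0.55), miR-181a (0.26 and -0.38), miR-300 (0.44 and -0.18) and miR-27b (-0.11 and 0.07). With 1 library left out, miR-191 was called in opposite directions (log2 fold change -1.17 without FCx index 7, adjusted p = 0.0159, and 1.65 without HP index 7, adjusted p = 0.00763), miR-219 was called without FCx index 7 (-1.02, adjusted p = 0.018) and miR-146b without HP index 7 (1.06, adjusted p = 0.0367).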

How the results depend on the processing

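The count of miRNAs called over all tested, 211, was 125 (of 188 tested) with at least 10 counts in each library, and 148 to 194 with each library left out in turn. The 89 called of 135 became 40 of 67 with a minimum mean of 500 CPM, 54 of 98 with 100 CPM as the mean of each index, and 76 to 94 with each library left out. The other alternatives gave 143 to 220 and 68 to 115 calls. A rank move of 40 in place of 20 left 28 of 60 miRNAs, and the Spearman coefficient in HP was 0.526 with a minimum of 500 CPM. With the 98 miRNAs of 100 CPM in each index alone, a choice made after seeing the data, 30 moved by 20 ranks and the coefficient in FCx was 0.616. For the 24 called miRNAs with named fold changes, 308 of 309 alternatives kept the direction and the call, and miR-429 lost its call without the region block. Of 700 alternatives for the 54 called miRNAs of 100 CPM or more in the lists, 62 lost the call and none changed direction, and of 423 for the 34 called ones under 100 CPM 92 lost it. The 9 other most abundant miRNAs gained a call in 26 of 117 alternatives. The log2 fold change of let-7c was -0.21 with library totals, -0.03 with DESeq2 size factors, -0.03 with the DESeq2 test, -0.22 with no filter, -0.23 with at least 10 counts, -0.14 in the pooled lanes and -0.22 to 0.76 with each library left out. That of let-7b was -0.11 with library totals, -0.12 with no filter, -0.14 with at least 10 counts, -0.02 in the pooled lanes and -0.11 to 0.84 with each library left out, and that of miR-9 was -0.29 to 0.16 with each library left out. The cause was not tested. The median log2 fold change over all tested was -0.06, -0.31 with library totals, -0.49 with no filter and 0.2 in the fit of all 6 libraries. Each index had 1 library a region, and levels that rested on under 50 counts, as for miR-496 and miR-674* with index 7, carry wide counting error. The region block paired the libraries of an RNA pool, and without it 143 of 417 and 68 of 135 miRNAs were called.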
